A study of Ovis aries with 30 samples.

Results

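The genes that make, sense, take up and move cholesterol were followed through the liver RNA of 30 lambs. A list of 31 genes was used, and 30 of them had a row in the count table of 31304 genes. CYP51A1, the lanosterol demethylase, had no row under that symbol and was not analysed here. EBP, the sterol isomerase, had a count of 0 in every lamb, and all of its 1349 exon bases lie within exons of PORCN on the same strand, so this 0 says nothing about its expression. The other 29 genes passed the filter on low counts and make up 17 enzymes of synthesis, 4 genes that control the pathway and 8 genes of uptake and trafficking.

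The lambs were the first generation born to ewes exposed to biosolids (treated sewage sludge used as a fertiliser, which carries many environmental chemicals at low levels) or to control ewes, before conception and in pregnancy. Whole liver tissue gave 8 control females, 8 biosolids females, 7 control males and 7 biosolids males, with 1 library per lamb, named here by its tag number. The labels give no age, dam, litter or batch, so p-values measure the spread between these lambs only, and a batch that followed exposure cannot be told apart from it. In whole tissue, fewer cells of a type and less RNA per cell cannot be told apart either.

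Liver is a main site of cholesterol synthesis. Acetyl units are joined by ACAT2 and HMGCS1, carried through mevalonate by MVK, PMVK and MVD to isoprene units, and assembled by IDI1, FDPS and FDFT1 into squalene, which SQLE and LSS close into the first sterol. TM7SF2, MSMO1, NSDHL, HSD17B7, SC5D and DHCR7 then trim and reduce that sterol to cholesterol. SREBF2 encodes the transcription factor SREBP2, which switches on this route when sterols are low: SCAP escorts it out of the endoplasmic reticulum, and INSIG1 and INSIG2 hold it back when sterols are plentiful. LRP1 and SCARB1 are lipoprotein receptors of the cell surface, MYLIP marks receptors for destruction, LIPA, NPC1 and NPC2 release cholesterol from lysosomes, STARD4 carries it through the cytosol and SOAT1 stores it as esters.

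Libraries held 18688079 to 51905219 counts. In biosolids male 8778, 87.5% of these fell on ribosomal RNA genes, against 0.299 to 7.69% in the other lambs, so its values rest on far fewer counts, for example 9 counts of FDPS. Hepatocyte markers were high in every lamb, ALB between 30010 and 72830 CPM (counts scaled to a common library size by the trimmed mean of M values). Summed markers of other cell types varied between lambs. The macrophage list (5 of 7 genes tested, CD68 at 0 in every lamb) lay between 455 and 1523 CPM, and the cholangiocyte list (4 of 5 tested) between 5.72 and 104 CPM with the highest value in biosolids female 8649. Their part in the results below was not tested.

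Levels of different genes were compared as CPM per kilobase of exon, taken as the median over the 30 lambs. ACAT2, the thiolase at the head of the route, stood highest at 171 CPM per kilobase, and LRP1, the large endocytic receptor of hepatocytes, followed at 130. Next came SC5D at 46.9, NPC2 at 40.04, MSMO1 at 32.7, INSIG1 at 30.6 and SREBF2 at 30.5. INSIG1 and SREBF2 did not differ beyond their spread over lambs (SD 11.01 and 10.3, n = 30). Nor did ACAT2 and LRP1 (SD 41.8 and 51.6). The enzymes at the isoprene branch point were low, with FDPS at 1.01 and GGPS1, which diverts isoprenes to protein prenylation, at 1.17. HSD17B7, the sterol ketone reductase, was lowest at 0.473. By these medians FDPS ranked 28th of the 29 genes per length while IDI1, the enzyme before it, ranked 12th. FDPS and GGPS1 lay within their spread over lambs (SD 1.26 and 0.314), and by the mean FDPS was the higher (1.37 and 1.22). FDPS lies on chromosome 1 at 105484970 to 105494154 (assembly ARS-UI_Ramb_v3.0), and 26.3% of its exon bases overlap exons of LOC121820538 on the other strand. Overlap of this kind also touched IDI1 (53.3% of exon bases, WDR37), SCAP (29.4%, LOC114109329) and FDFT1 (13.1%, CTSB), and the sources used here do not give whether reads were counted by strand.

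The genes differed widely in how much they varied between lambs, and SQLE varied most. SQLE, the squalene epoxidase that commits the pathway to sterols (chromosome 9, 28169561 to 28191274), ran from 0.763 CPM in control male 8408 to 27.3 CPM in control female 8378, a 35.7-fold range. Its within-group SD of 1.03 log2 units was larger than that of 94.1% of the genes tested. TM7SF2, a sterol reductase, followed with a within-group SD of 0.85, LSS with 0.79 and DHCR7, the last enzyme of the route, with 0.69. PMVK, a mid-route kinase, varied far less (0.28), and MYLIP, the ubiquitin ligase, least of all (0.21), between 12.1 and 21.98 CPM over the 30 lambs.

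**Figure D1:**
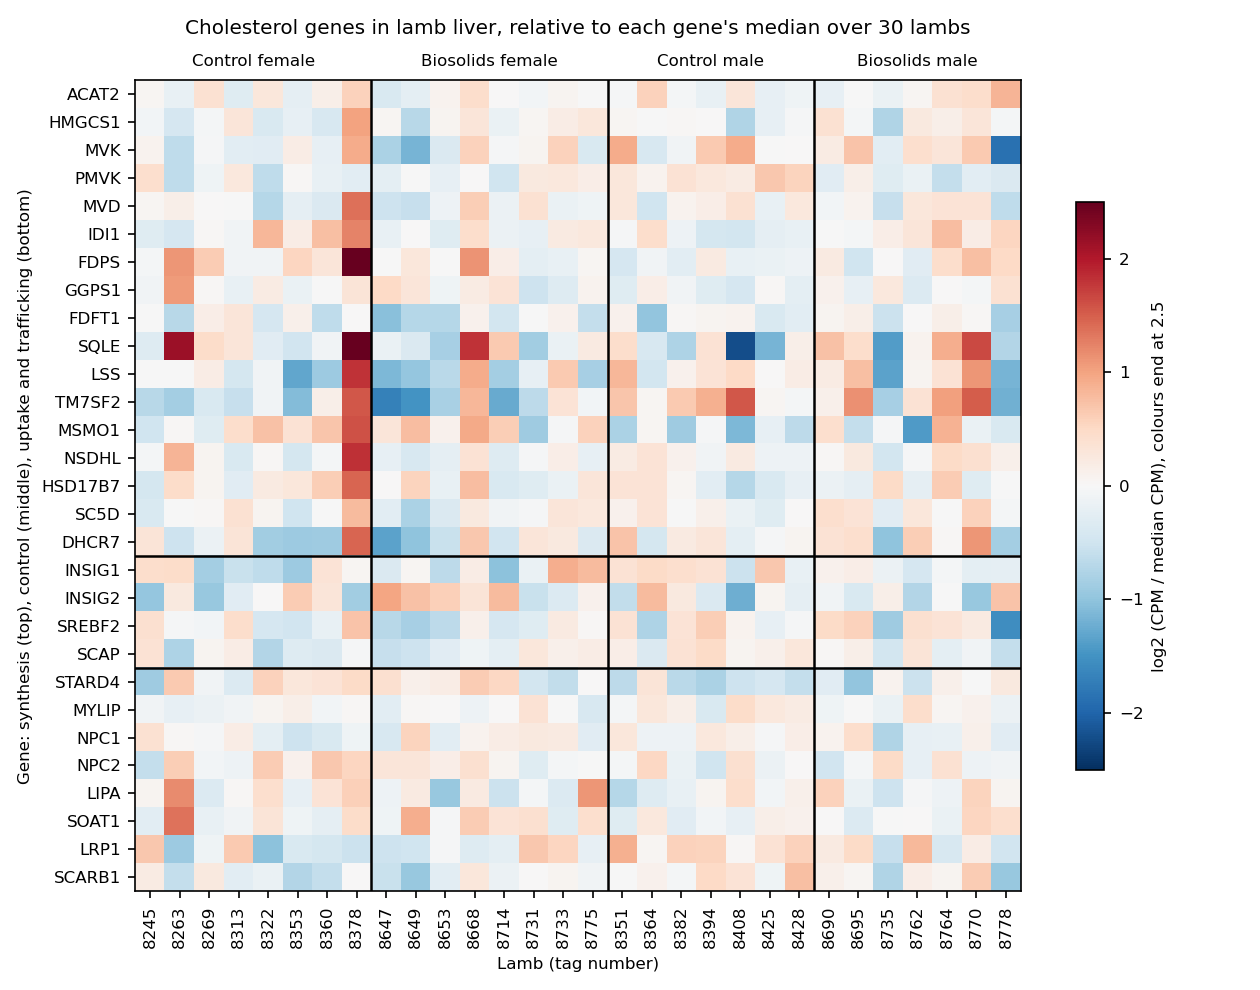
Heat map of the 29 expressed cholesterol genes (rows, in the order of the pathway) in each of 30 lambs (columns, by group). Colour gives log2 of CPM over the gene's median across all lambs; the red cells of control female 8378 cover most synthesis enzymes (highest of 30 lambs for 12 of 29 genes) and are paler over the uptake genes.

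A single lamb, control female 8378, carried the highest level of most synthesis enzymes. It ranked first of 30 for 12 of the 29 genes, namely HMGCS1, MVD, IDI1, FDPS, SQLE, LSS, MSMO1, NSDHL, HSD17B7, SC5D, DHCR7 and SREBF2. Over all genes tested, this lamb ranked first for 3.45%. SQLE was 27.3 CPM there against a median of 3.31 in the other 7 control females, 8.23-fold. For FDPS the values were 17.2 and 2.77 CPM (6.20-fold), for TM7SF2 133 and 30.5 CPM (4.37-fold) and for DHCR7 86.3 and 21.8 CPM (3.95-fold). In all, 12 of 17 synthesis enzymes stood at 2 or more times that median, where 5.06% of all genes did, and the median ratio was 2.34 for the enzymes and 1.01 for all genes.

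Not all of the route followed in that animal. PMVK stood at 0.900 times and FDFT1, the squalene synthase, at 1.01 times the median of the other control females. INSIG2, a brake on SREBP2, stood at 0.548 times and ranked 26th of 30. SREBF2 stood at 1.72 times, and no uptake or trafficking gene was at its highest there. This lamb was chosen after the values were seen, so these ratios are a description with no test. Its library held 29805987 counts, 5.38% of them ribosomal RNA. Its macrophage marker sum was 1096 CPM, where control females ranged from 549 to 1523 (median 687). Of all lambs, only control female 8263, at 1523 CPM, was higher. The cholangiocyte marker sum of lamb 8378, 5.72 CPM, was the lowest of all lambs. The part of these in its sterol enzyme levels was not tested.

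Other lambs stood apart in different ways. Biosolids female 8668 was among the 3 highest lambs for 6 of 17 enzymes, and biosolids males 8764 and 8770 for 4 of 17 each. Control female 8263 was highest for GGPS1, STARD4, LIPA and SOAT1 and lowest for PMVK and SCAP. Control male 8408 combined the lowest HMGCS1, IDI1, SQLE, HSD17B7 and INSIG2 of all lambs with the highest MVK, TM7SF2 and MYLIP.

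In females, the question was whether exposure shifted these genes, and none of the 29 passed an adjusted p of 0.05 in the quasi-likelihood test of edgeR, adjusted by Benjamini-Hochberg over all genes, where 0.0% of 17840 genes passed. At an unadjusted p under 0.05 there were 2 members, both lower with exposure, and 3.65% of all genes. DESeq2 and limma voom also called 0 genes. The lowest values came from FDPS, the enzyme that builds farnesyl diphosphate. FDPS ran from 2.13 to 17.2 CPM in control females (median 3.02) and from 1.90 to 4.90 CPM in biosolids females (median 2.28). The groups overlapped through most of their range, and only lamb 8378 stood far above it. The FDPS log2 fold change was -0.86 ± 0.33 (SE; edgeR adjusted p = 1.0, unadjusted 0.0140). NSDHL, a decarboxylating sterol dehydrogenase, ran from 31.8 to 151 CPM (median 42.6) in controls and from 32.4 to 55.1 CPM (median 37.3) with exposure, a change of -0.52 ± 0.23. The third smallest p belonged to INSIG2, whose median was 74.6 CPM in controls and 113 CPM in exposed females, at +0.54 ± 0.28 (edgeR adjusted p = 1.0). INSIG1, its paralogue, was at +0.20 ± 0.24 and SREBF2 at -0.37 ± 0.25.

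By role, 16 of the 17 synthesis enzymes had a lower mean in biosolids females, with a median log2 change of -0.26. For all genes the median was -0.02, and 54.1% were lower. Of the 4 control genes 1 was lower, and of the 8 uptake genes 3. This lean of the enzymes rested on control female 8378. Without it, 9 of the 17 enzymes were lower, with a median of -0.01. Over the whole set, 16 of the 29 cholesterol genes were higher in exposed females instead of 9, and the median moved from -0.13 to +0.06 without that lamb. FDPS went to -0.19 ± 0.21 and NSDHL to -0.15 ± 0.16 without that lamb. INSIG2 was at +0.45 ± 0.29. Among marker lists, all 4 T and NK cell genes were lower in exposed females (median -0.42), and also in exposed males (median -0.21). In females, 4 of 5 macrophage genes were lower (median -0.21) and 6 of 7 stellate cell genes higher (median +0.33). Hepatocyte markers had 6 of 9 higher (median +0.02) and endothelial markers 2 of 5 (median -0.02). The part of these cell types in the values above was not tested. All 4 cholangiocyte genes were higher (median +1.18), but without biosolids female 8649 only 2 were (median +0.09), while 15 of 17 synthesis enzymes were lower without that lamb.

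**Figure D2:**
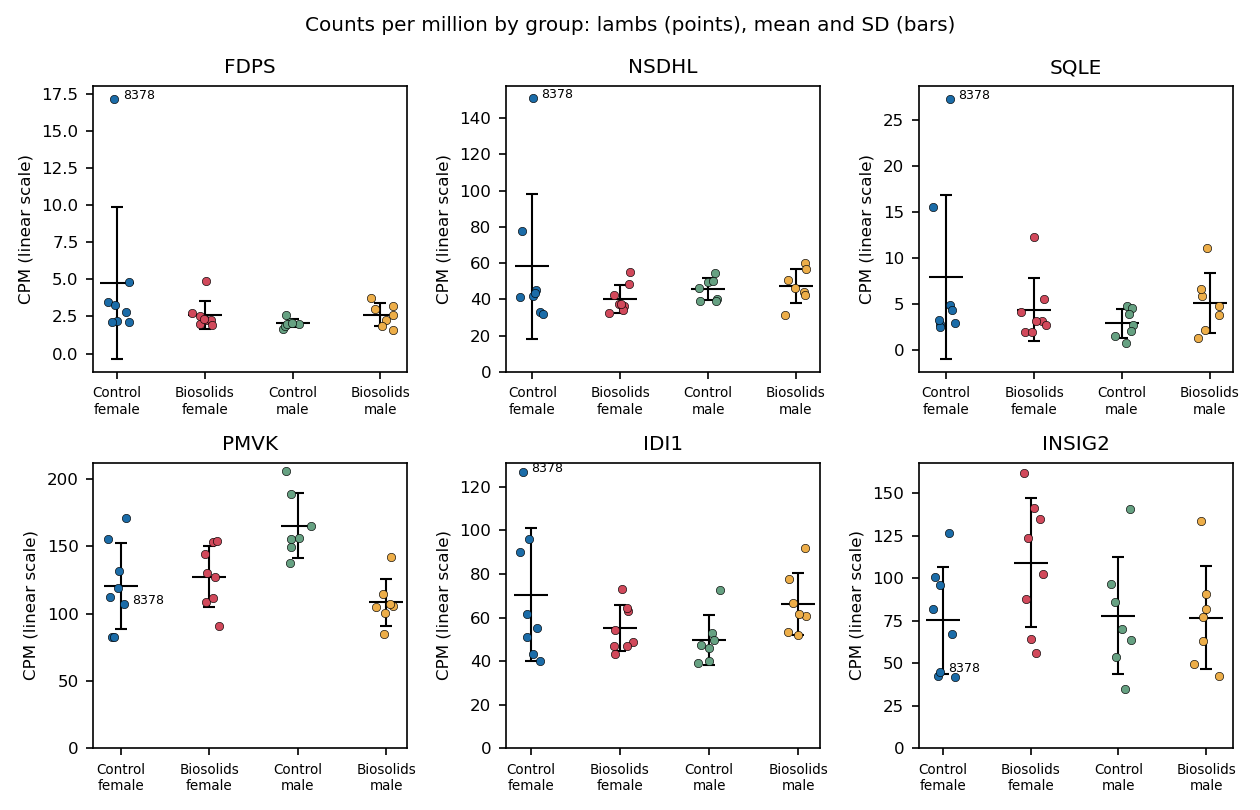
CPM (linear axes) of FDPS, NSDHL, SQLE, PMVK, IDI1 and INSIG2 in control and biosolids lambs of each sex; points are lambs, bars the mean and SD. Control female 8378 is labelled and sits at the top for FDPS (17.2 CPM), NSDHL (151 CPM), SQLE (27.3 CPM) and IDI1 (127 CPM), but within the group for PMVK and INSIG2.

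In males, PMVK, which adds the second phosphate to mevalonate (chromosome 1, 105089641 to 105155088), showed the smallest p of the cholesterol genes. Its level ran from 138 to 206 CPM in control males (median 156) and from 84.6 to 142 CPM in biosolids males (median 106). Biosolids male 8695, at 142 CPM, was the only exposed lamb within the control range, since the next highest stood at 114 CPM. The log2 fold change was -0.61 ± 0.16 (SE; edgeR adjusted p = 0.438, unadjusted p = 0.000466, rank 19 of 17840 genes). Leaving out single lambs kept it between -0.68 and -0.55 with an edgeR adjusted p of 0.222 to 0.995. With the lamb's ribosomal protein level in the model it was -0.53 ± 0.12 (edgeR adjusted p = 0.508). None of the 29 genes passed the adjusted threshold, at a background of 0.0%, and PMVK alone had an unadjusted p under 0.05, where 5.44% of genes did. Limma voom called 0 genes in this comparison, and DESeq2 called 4, none of them a cholesterol gene. All 9 hepatocyte markers had a lower mean in biosolids males (median -0.23), and their part in the PMVK value was not tested.

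IDI1, which interconverts the 2 isoprene units, went the other way in males, from 39.0 to 72.7 CPM in controls (median 47.4) and from 52.1 to 92.0 CPM with exposure (median 61.5). Only control males 8364 and 8351 reached the exposed range. The change was +0.42 ± 0.21 (edgeR adjusted p = 0.816). SCAP, the escort of SREBP2, had the third smallest p at -0.27 ± 0.17, with medians of 37.4 CPM in control and 31.4 CPM in biosolids males. FDPS stood at +0.33 ± 0.36, INSIG1 at -0.37 ± 0.26, INSIG2 at -0.03 ± 0.30 and SREBF2 at -0.01 ± 0.26. Among the synthesis enzymes 12 of 17 were higher in biosolids males (median +0.15, all genes +0.01, 51.3% higher), and the 4 control genes had a median of -0.15. Of these, SREBF2 and INSIG2 lay near 0 and had no stable direction: SREBF2 was at +0.14 without biosolids male 8778 and its median CPM was higher in biosolids males (203 against 171), and INSIG2 was at +0.18 without control male 8364. No cholesterol gene separated the exposed from the control lambs without overlap in either sex, and over all genes 0.0% did in females and 0.0561% in males.

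**Figure D3:**
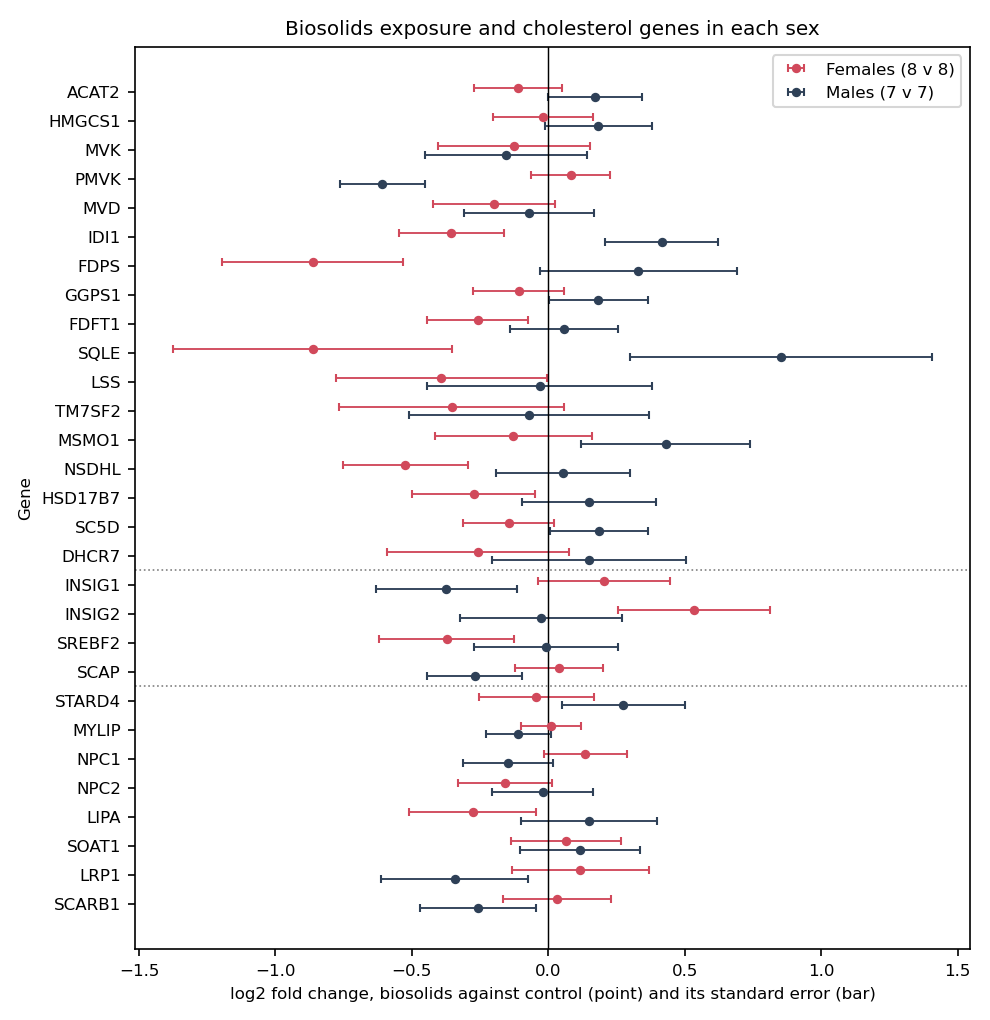
Log2 fold change of biosolids against control for the 29 genes in females (red) and males (dark blue); points are estimates and bars standard errors, dotted lines divide synthesis, control, and uptake and trafficking. FDPS, SQLE, IDI1 and PMVK lie on opposite sides of 0 in the 2 sexes, but 0 of 17840 genes passed the test of that difference. The values in females include control female 8378. Without that lamb, 8 of the 17 synthesis enzymes were higher in exposed females instead of 1. PMVK lies near 0 in females (+0.08 ± 0.14), and the bars for SQLE are wide.

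Averaged over both sexes, 20 of the 29 genes were lower with exposure (all genes 51.1%), none was called (background 0.0%), and PMVK alone had an unadjusted p under 0.05, where 4.3% of genes did. Its log2 change was -0.26 ± 0.11 (edgeR adjusted p = 0.943). FDPS was at -0.27 ± 0.25, INSIG2 at +0.25 ± 0.20, SREBF2 at -0.19 ± 0.18 and INSIG1 at -0.09 ± 0.18, all with an edgeR adjusted p of 0.943 to 0.975. Without control female 8378, 16 of the 29 genes were higher and FDPS was at +0.07 ± 0.16. Limma voom called 0 genes of the whole table and DESeq2 4, with no cholesterol gene among them.

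The effects of exposure in males and females were set against each other in 1 test, as the male effect less the female one. No gene of the 17840 passed (0.0%; 3.63% at an unadjusted p under 0.05), and 4 cholesterol genes had an unadjusted p under 0.05. PMVK stood at -0.69 ± 0.21, from +0.08 in females and -0.61 in males. IDI1 stood at +0.77 ± 0.28, from -0.36 in females and +0.42 in males. FDPS was at +1.19 ± 0.49 and SQLE at +1.72 ± 0.75, the latter from -0.86 ± 0.51 in females and +0.85 ± 0.55 in males. For all 4, edgeR's adjusted p was 0.952. The SQLE medians were 3.83 in control and 3.15 in biosolids females against 2.69 in control and 4.81 in biosolids males. By role, 15 of the 17 synthesis enzymes had a higher value in males (median +0.33) and 3 of 4 control genes a lower one (median -0.44), where 53.4% of all genes were higher. Without control female 8378, 11 of the 17 enzymes were higher (median +0.20), and the median of the 29 genes went from +0.28 to +0.03. None of the 9 hepatocyte markers (median -0.30) and 1 of 7 stellate cell markers (median -0.49) were higher, and their part was not tested. The 4 cholangiocyte markers were all lower (median -0.82), and 1 of them was without biosolids female 8649. Without control female 8378 the FDPS value was +0.52 ± 0.31, IDI1 +0.60 ± 0.26 and PMVK -0.67 ± 0.22. The SQLE value above includes that lamb, at 27.3 CPM against a median of 3.31 CPM in the other control females. DESeq2 called 1 gene, not a cholesterol gene, and limma voom 0.

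Among control lambs, males were compared with females. None of the 29 genes passed, against 0.0841% of all genes (15), but 9 had an unadjusted p under 0.05, 3 higher and 6 lower in males, where 18.9% of all genes did. FDPS was lower in males at -1.21 ± 0.35, with medians of 3.02 CPM in females and 2.01 CPM in males (edgeR adjusted p = 0.198). MSMO1, the methyl sterol oxidase, was lower by -0.98 ± 0.30, from 47.7 to 205 CPM in control females (median 89.5) and from 31.1 to 69.6 CPM in control males (median 43.0; edgeR adjusted p = 0.198). PMVK was higher by +0.46 ± 0.15, with medians of 116 and 156 CPM. The others were STARD4 (-0.63 ± 0.22), SQLE (-1.45 ± 0.54), IDI1 (-0.51 ± 0.20), LRP1 (+0.59 ± 0.26), SCARB1 (+0.45 ± 0.21) and GGPS1 (-0.36 ± 0.17). INSIG1 was at +0.38 ± 0.25, INSIG2 at +0.05 ± 0.29 and SREBF2 at +0.01 ± 0.25. No member was without overlap between these groups, where 0.213% of all genes were.

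The summed level of 80 ribosomal protein genes moved with sex in control lambs, with medians of 21140 CPM in females and 12450 CPM in males. With that level as a term, 6.78% of all genes had an unadjusted p under 0.05. FDPS then stood at -0.997 ± 0.37, MSMO1 at -0.75 ± 0.30 and PMVK at +0.32 ± 0.12, each smaller than before, with an edgeR adjusted p of 0.669 to 0.688. STARD4 went to -0.32 ± 0.16 and LRP1 to +0.29 ± 0.15. LRP1 was high where the ribosomal protein level was low, in males and females of both exposures, and STARD4 the reverse. Without control female 8378, FDPS was at -0.54 ± 0.22 and MSMO1 at -0.73 ± 0.28. The SQLE difference between control males and females includes that lamb, at 27.3 CPM against a median of 3.31 CPM in the other control females. All 9 hepatocyte markers (median +0.39) and 6 of 7 stellate cell markers (median +0.55) had higher means in control males, and their part was not tested.

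**Figure D4:**
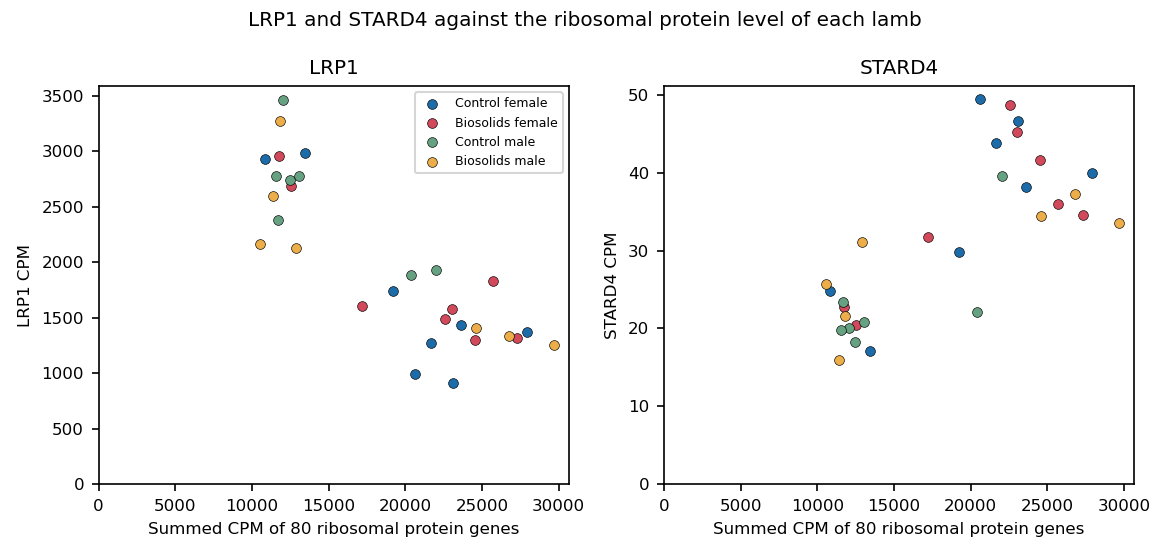
LRP1 (left) and STARD4 (right) in CPM against the summed CPM of 80 ribosomal protein genes in each lamb, coloured by group, all axes linear. Control male 8351 has 3463 CPM of LRP1 at a ribosomal protein level of 12044 CPM, and control female 8322 has 912 CPM at 23077 CPM; STARD4 runs in the opposite direction.

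Among biosolids lambs, 0.0953% of genes (17) differed by sex and none of the 29 did, nor was any without overlap (0.0673% of all genes). TM7SF2 alone had an unadjusted p under 0.05 (all genes 4.85%), higher in males by +0.93 ± 0.43 (edgeR adjusted p = 0.969), with medians of 27.5 CPM in females and 58.7 CPM in males. INSIG2 was next at -0.51 ± 0.29, then PMVK at -0.23 ± 0.15. FDPS stood at -0.01 ± 0.35, INSIG1 at -0.20 ± 0.25 and SREBF2 at +0.37 ± 0.25.

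Whether the genes varied together from lamb to lamb was asked with HMGCS1, which makes the HMG-CoA that enters the mevalonate route. Each gene's log2 level was fitted on the lamb's HMGCS1 level, centred within its group, so that group differences took no part, and a slope of 1 means that a doubling goes with a doubling. All values come from the same libraries, so their depth and scaling are shared. Of the other 28 cholesterol genes 2 were called, both positive, where 0.0505% of genes were (9), 4 of them positive (0.0224%). DHCR7, the final reductase (chromosome 21, 44653001 to 44675907), had the smallest p of all 17839 genes, with a slope of 1.40 ± 0.21 (edgeR adjusted p = 0.00454). SC5D, the desaturase just before it (chromosome 15, 31628864 to 31641435), had a slope of 0.66 ± 0.12 (edgeR adjusted p = 0.0299). DHCR7 ranged from 16.7 to 86.3 CPM in control females, 12.5 to 50.3 in biosolids females, 23.2 to 51.2 in control males and 15.5 to 67.6 in biosolids males. All 4 groups overlapped. At the ends of the HMGCS1 range, control female 8378 had 122 CPM of HMGCS1 and 86.3 CPM of DHCR7, and biosolids male 8735 had 36.2 and 15.5 CPM.

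**Figure D5:**
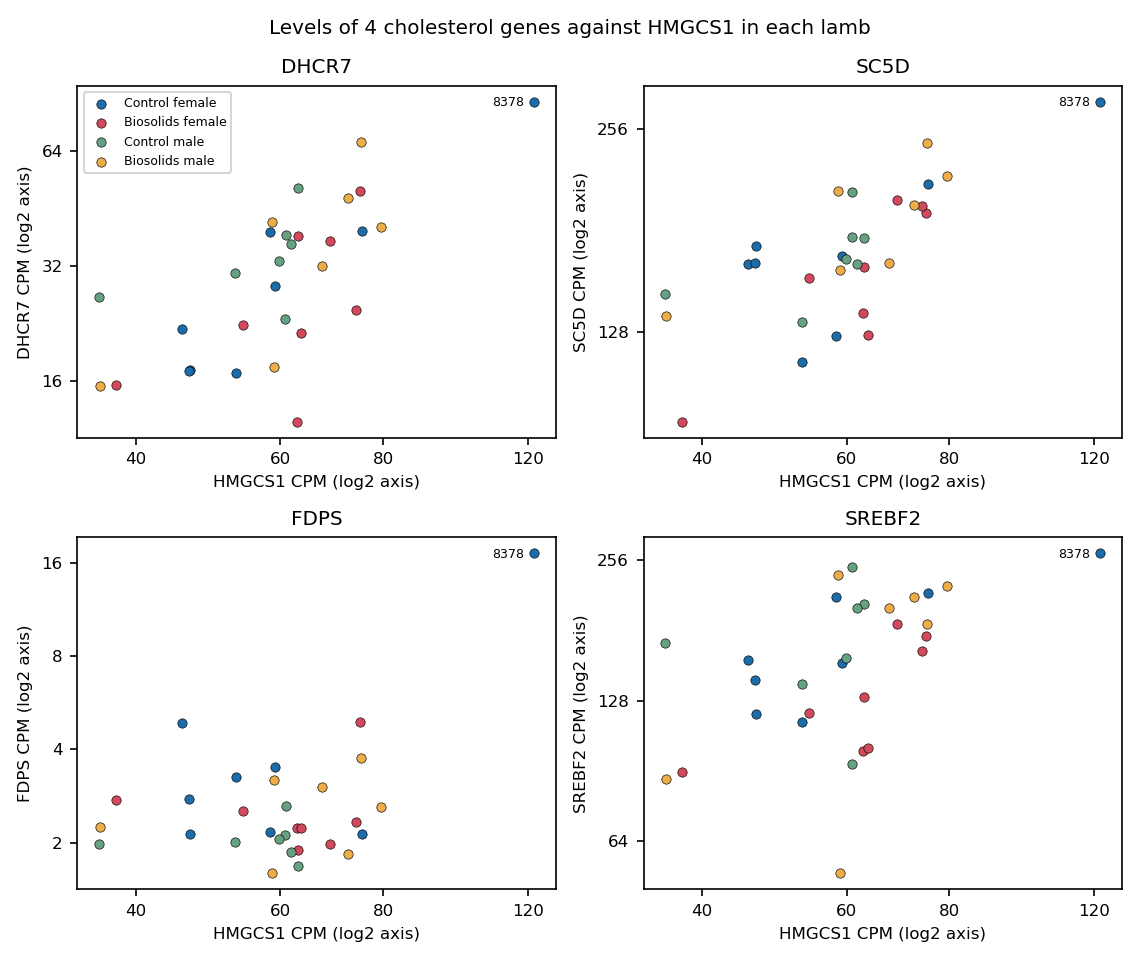
DHCR7, SC5D, FDPS and SREBF2 against HMGCS1 in each lamb, in CPM on log2 axes, coloured by group. DHCR7 and SC5D climb with HMGCS1 across most lambs, whereas FDPS stays between 1.60 and 4.90 CPM in every lamb but control female 8378, at 17.2 CPM.

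These 2 calls depended on single animals to different degrees. DHCR7 was called in 30 of 30 fits that left out 1 lamb, with slopes of 1.33 to 1.53. SC5D was called in 25 of 30 and not without control female 8313, biosolids females 8649 and 8775, or biosolids males 8735 and 8770, with an edgeR adjusted p of up to 0.148. When control female 8378 and biosolids male 8735, whose centred HMGCS1 levels lay farthest from the median, were both left out, neither was called. The slopes were then 1.24 for DHCR7 and 0.65 for SC5D (edgeR adjusted p = 0.115 and 0.134), so the calls rest on those lambs while the slopes changed little. The 9 hepatocyte markers also had positive slopes (median 0.43), and their part was not tested. The 4 cholangiocyte markers had negative slopes (median -1.30), but 2 were positive (median 0.13) without biosolids female 8649, which held both the highest cholangiocyte sum and the lowest HMGCS1 of its group (37.9 CPM).

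Of the 28 genes, 15 had a positive slope at an unadjusted p under 0.05 and none a negative one, where 20.5% of all genes had such a p in either direction. Over the 28 the median slope was 0.41, with 22 positive, and over all genes it was -0.03, with 46.9% positive. Of the roles, the synthesis enzymes led when all lambs were kept, with 15 of 16 positive and a median of 0.63. SQLE stood at 1.58 ± 0.40, LSS at 1.24 ± 0.29, TM7SF2 at 0.99 ± 0.34, FDPS at 0.91 ± 0.24 and MVD, the mevalonate decarboxylase, at 0.76 ± 0.17. NSDHL was at 0.67 ± 0.18, MVK at 0.60 ± 0.26, MSMO1 at 0.42 ± 0.26, FDFT1 at 0.41 ± 0.19 and IDI1 at 0.36 ± 0.18. HSD17B7 (0.28 ± 0.20), ACAT2 (0.21 ± 0.16) and PMVK (0.14 ± 0.15) were nearer to 0, and GGPS1, the branch enzyme, was at -0.17 ± 0.17. Without control female 8378, the slope of FDPS was 0.08, of IDI1 0.07, of MSMO1 0.03 and of NSDHL 0.16, and the median of the 28 was 0.20. The enzymes no longer led, with 14 of 16 positive and a median of 0.35. The median was then 0.42 for the 4 control genes, 0.49 for 12 genes of fatty acid synthesis and 0.61 for the 9 hepatocyte markers. That fit called 1248 genes (7.01%) and 6 cholesterol genes, DHCR7, SC5D, SREBF2, SCAP, LRP1 and SCARB1. HSD17B7 went to -0.20 without that lamb.

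Of the control genes, SREBF2 had a slope of 0.80 ± 0.22 and SCAP 0.46 ± 0.16, whereas INSIG1 was at 0.22 ± 0.25 and INSIG2 at -0.52 ± 0.30. SREBF2 was not called with all lambs kept (edgeR adjusted p = 0.117). Its slope held between 0.71 and 0.93 when single lambs were left out, and was called in 1 of those 30 fits. Uptake and trafficking genes split evenly, 4 of 8 positive, with a median of -0.0007. SCARB1 was at 0.57 ± 0.19 and LRP1 at 0.63 ± 0.27, while LIPA (0.09 ± 0.23), NPC1 (0.04 ± 0.16), MYLIP (-0.04 ± 0.12), STARD4 (-0.11 ± 0.21), SOAT1 (-0.14 ± 0.20) and NPC2 (-0.28 ± 0.16) lay around or below 0. Of these 8, the slopes of LRP1 and SCARB1 had an unadjusted p under 0.05.

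With the ribosomal protein level as a term, 3 genes of the whole table were called (0.0168%), and 2 of them were cholesterol genes: FDPS at 1.29 ± 0.22 and DHCR7 at 1.14 ± 0.19, both with an edgeR adjusted p of 0.0223. SC5D was at 0.63 ± 0.13 (edgeR adjusted p = 0.131). LRP1 was at -0.02 in that fit. The median slope of the 4 control genes went from 0.34 to 0.11 with this term, and that of the 16 synthesis enzymes from 0.63 to 0.72. With SQLE in place of HMGCS1, 7 genes were called (0.0392%), among them FDPS at 0.45 and NSDHL at 0.31 (edgeR adjusted p = 0.0147 and 0.0312). All of these calls rested on control female 8378. Without it, no gene was called with the ribosomal protein term (0 of 17806, 796 with an unadjusted p under 0.05), FDPS was at 0.53 and DHCR7 at 0.70 (edgeR adjusted p = 1.0). With SQLE as index and without that lamb, 1 gene and no cholesterol gene was called, FDPS was at 0.26 and NSDHL at 0.19 (edgeR adjusted p = 0.751).

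Beyond the list, the genes nearest to HMGCS1 by the smallest p were CD320, a vitamin B12 receptor, with a slope of 0.65 ± 0.13 (edgeR adjusted p = 0.0343), TECR, an enzyme of fatty acid elongation (0.91 ± 0.19, adjusted p = 0.0687), KCTD21 (0.67 ± 0.15), LCAT, which esterifies cholesterol in plasma lipoproteins (0.63 ± 0.14, mean 509 CPM), C11H17orf114 (0.69 ± 0.15), TUBG1 (0.70 ± 0.16), OGFOD3 (0.49 ± 0.11), MMACHC, a cobalamin processing protein (0.52 ± 0.12), and BRCC3 (0.38 ± 0.09). On the negative side stood C2H8orf58 (-1.03 ± 0.21, edgeR adjusted p = 0.0448), TRPV2 (-0.73 ± 0.15), CSF3R, a neutrophil growth factor receptor (-1.05 ± 0.22), GSDME (-4.12 ± 0.88) and MAPK12 (-0.55 ± 0.12). CD320 and C2H8orf58 alone of these passed the threshold.

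Other genes of the pathway were described from a list of 37, of which 35 were tested, together with 12 genes of fatty acid synthesis, all tested. None of the 47 passed in any comparison of groups or in the slope on HMGCS1. In females, STARD5, a sterol carrier, had the smallest p of the 35 (+0.70 ± 0.31), and 20 of 35 were lower. ME1, a source of NADPH for lipid synthesis, led the 12 (+1.12 ± 0.39, edgeR adjusted p = 1.0), followed by SCD, the stearoyl-CoA desaturase, at -0.67 ± 0.36, and 8 of 12 were lower. Both counts rested on control female 8378. Without it, 16 of the 35 and 4 of the 12 were lower, and the median of the 12 went from -0.15 to +0.05. In males, ABCA1, the cholesterol exporter, was at -0.35 ± 0.21, and 24 of the 35 were lower. FASN, the fatty acid synthase, was at -0.22 ± 0.15 and ELOVL6, an elongase, at -0.22 ± 0.22, and 10 of 12 were lower. The medians in males were -0.12 for the 35 and -0.07 for the 12. Over all genes, 48.7% were lower in exposed males and 54.1% in exposed females. When the ribosomal protein level was a term, 23 of the 35 and 7 of the 12 were lower in males. Against HMGCS1, 24 of 35 pathway genes had a positive slope, led by LCAT and PDSS2 (0.63 ± 0.17), which builds the side chain of coenzyme Q. All 12 fatty acid genes had a positive slope (median 0.48), led by ACACA (0.73 ± 0.18) and ACSS2 (0.71 ± 0.19), and their smallest edgeR adjusted p was 0.103. With the ribosomal protein term, 11 of the 12 were positive with a median of 0.30, and 16 of the 35 were.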

How the data were processed

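Frozen liver gave the RNA, by column, for TruSeq libraries read on a NovaSeq (S4), per the labels' protocols. The submitters' processing notes name featureCounts 1.5.0-p3 and STAR, with Trimmomatic, FastQC and MultiQC, without settings. The authors deposited whole-number counts per gene in 1 table with a column for each of 30 lambs. In it, 7 genes broken over 25 lines were joined. 28862 of 31304 genes matched RefSeq ARS-UI_Ramb_v3.0 by symbol, and start and end were identical in all 28855 compared, and this assembly is used for coordinates. No column (0) lacked a lamb.

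The tests used edgeR 4.0.16 (R 4.3.3): filterByExpr by group (17840 genes), TMM scaling, 1 model with a mean per group (26 residual degrees of freedom), the robust quasi-likelihood test and Benjamini-Hochberg adjustment over all genes tested, called under 0.05. A standard error is the fold change divided by the root of its F. For slopes, the log2 CPM of HMGCS1 (prior count 2), centred within group, was added as a term. Alternatives were RLE scaling, DESeq2 1.42.0, limma 3.58.1 voom with sample weights, other filters, ribosomal RNA rows left out, an adjusted p of 0.1, fits of only the 2 groups compared, an additive model, SQLE as index, and each lamb left out. Chosen after the data were seen were fits without lambs 8378 and 8778, without the 2 lambs farthest in HMGCS1, without 8378 together with the ribosomal protein term or the SQLE index, list counts without 8378 or 8649, with other index genes, and with log2 of the summed ribosomal protein CPM as a term. The tests were also run on simulated counts with known changes and slopes. Those counts held no outlying lamb and no shared ribosomal protein level, so they cannot judge calls that rest on either.

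The members, lists and tests were chosen with earlier results of these data known. The rule for naming genes took all called members of a comparison or otherwise the 3 with the smallest p, always FDPS, INSIG1, INSIG2 and SREBF2, and for slopes also the 10 positive and 5 negative other genes with the smallest p, a symbol and at least 1 CPM. Some genes under these rules are not reported here.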

Additional observations from a re-analysis of the deposited data

Results flagged for a closer look

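In a search for lambs far from the rest of their group, done for each of the 29 genes in each of the 4 groups on log2 CPM, 10 of 116 tests passed Dixon's 95% limit, where chance gives about 1 in 20. Control female 8378 stood above its group for MVD at 78.7 CPM (next lamb 33.7), FDPS at 17.2 CPM (next 4.85) and TM7SF2 at 133 CPM (next 50.2). Control female 8263 stood above it for GGPS1 at 10.7 CPM (next 6.45) and SOAT1 at 17.1 CPM (next 9.17). Biosolids female 8668 was high for FDPS at 4.90 CPM (next 2.75), and control male 8364 for STARD4 at 39.6 CPM (next 23.4). On the low side were HMGCS1 in control male 8408 at 36.1 CPM (next 52.9) and in biosolids male 8735 at 36.2 CPM (next 58.6), and MVK in biosolids male 8778 at 8.16 CPM (next 24.9), the library with most ribosomal RNA.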

How the results depend on the processing

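No paired analysis was possible because the groups share no replicate numbers. Depth limits most the library of biosolids male 8778, 87.5% ribosomal RNA. DESeq2 called 4 genes for exposure in males, 4 over both sexes, 1 for the difference between sexes, 53 for sex in controls, 240 for the slope on HMGCS1 and 6 members there. Limma voom called 64 genes for sex in controls, 2568 for the slope and 12 members, with a slope of -0.0514 for HSD17B7 and a sex difference in biosolids of 0.0682 for INSIG1. At 1 CPM in 15 libraries there were 3 calls for sex in controls, 7 in biosolids, 2 for the slope and 1 member, and INSIG2 (0.0083) and SREBF2 (0.012) in males, SREBF2 for sex in controls (-0.018) and the NPC1 slope (-0.027) changed sign. No filter gave 26 slope calls and 0.0078 for SREBF2 in males, and an adjusted p of 0.1 gave 43 and 4 members. Fits of only the 2 groups gave 10 calls for sex in biosolids and -0.0025 for SREBF2 for sex in controls. With SQLE as index the median slope was 0.17, PMVK -0.0669, GGPS1 0.11, STARD4 0.0917, NPC2 0.0137, SOAT1 0.18 and LRP1 -0.041. The ribosomal protein term gave 3 slope calls, slopes of -0.12 for PMVK, 0.0136 for GGPS1, 0.35 for STARD4, -0.19 for NPC1, 0.0297 for NPC2 and -0.015 for LRP1, SREBF2 at 0.0889 in males and -0.29 for sex in controls, and FDPS at 0.12 for sex in biosolids. Without lambs 8378 and 8778, 17 members were higher with exposure in females and 18 over both sexes, 1031 genes and 4 members were called for the slope (median 0.19), HSD17B7 was at -0.21, FDPS over both sexes at 0.0532, INSIG2 for sex in controls at -0.0455 and SREBF2 in males at 0.14. Without the 2 lambs farthest in HMGCS1, 4 genes and 0 members were called (median 0.13), and slopes were -0.0886 for ACAT2, -0.0654 for HSD17B7, -0.23 for LIPA, -0.19 for NPC1 and -0.0776 for NSDHL. With the ribosomal protein term and without lamb 8378, 0 genes and 0 members were called, and slopes were -0.15 for PMVK, -0.0236 for INSIG1, 0.44 for INSIG2, 0.49 for STARD4, -0.37 for NPC1 and -0.15 for LIPA. With SQLE as index and without 8378, 1 gene and 0 members were called (median 0.13), with slopes of -0.0667 for PMVK, 0.12 for GGPS1, 0.0838 for STARD4 and 0.20 for SOAT1. The cause of these changes was not tested.

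Leaving out single lambs gave 7 to 16 members higher in females, 8 to 16 over both sexes, 10 to 23 calls for sex in controls (23 without 8245), 1 to 1248 slope calls (1 without 8735, 34 without 8408, 1248 without 8378), 1 to 6 members called and median slopes of 0.20 to 0.46. FDPS ran from -0.35 to 0.0692 over both sexes and from -0.14 to 0.17 for sex in biosolids, INSIG2 from -0.21 to 0.18 in males and -0.16 to 0.19 for sex in controls, and SREBF2 from -0.12 to 0.14 and -0.10 to 0.12. Slopes ran from -0.20 to 0.46 for HSD17B7, -0.0308 to 0.23 for LIPA, -0.11 to 0.026 for MYLIP, -0.11 to 0.18 for NPC1 and -0.33 to 0.0427 for SOAT1.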

Other observations

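When SREBF2, LRP1 or STARD4 took the place of HMGCS1, a choice made after the data were seen, edgeR's quasi-likelihood test called far more of the whole table: 29.4% of genes for SREBF2, 43.5% for LRP1 and 38.4% for STARD4. Of the 28 cholesterol genes, 13 were called positive and 2 negative with SREBF2, 7 and 7 with LRP1, and 8 and 6 with STARD4. Over all genes, 16.2% were called positive and 13.3% negative with SREBF2, 21.0% and 22.5% with LRP1, and 19.7% and 18.8% with STARD4. By sign alone, called or not, 20 of the 28 slopes were positive with SREBF2, 15 with LRP1 and 14 with STARD4. The genes called negative with SREBF2 were INSIG2 (-0.69 ± 0.15) and STARD4 (-0.41 ± 0.13), and the leading ones called positive were DHCR7 (1.08 ± 0.15) and LSS (1.18 ± 0.19). STARD4, the cytosolic sterol carrier, had a slope of -0.77 ± 0.10 on LRP1, and SCAP one of +0.57 ± 0.07.

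The ribosomal protein level of the lambs had a gap. In 13 lambs (2 control females, 2 biosolids females, 5 control males and 4 biosolids males) the 80 genes summed to between 10539 and 13452 CPM, and in the other 17 to between 17185 and 29702 CPM. LRP1 lay between 2129 and 3463 CPM in the former and between 912 and 1933 CPM in the latter. STARD4 lay between 15.98 and 31.2 CPM and between 22.1 and 49.5 CPM. The sides were set from the data and are not groups of the study, so these ranges carry no test.

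Of 35 other pathway genes, 18 had a called positive slope on LRP1 and 1 a negative one, and of 12 fatty acid synthesis genes 4 were positive and none negative, where 21.0% of all genes were called positive and 22.5% negative. With STARD4 the counts were 3 and 15, and 0 and 4, where 19.7% of all genes were positive and 18.8% negative.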
